A study of Rattus norvegicus with 6 samples.

Results

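Complement components and regulators were examined in bulk RNA-seq of rat mammary tumors, as a list of 9 genes given by symbol: C1qa, C1qb, C1qc, C1s, C2, C3, Cfb, Cfd and Serping1. Of these, 8 had a row under their symbol among the 26195 named rows of the read count table, and all 8 had enough counts to be tested. C2 was not analysed here. The tumors arose in female F344 (Fischer) rats, an inbred strain, the younger ones virgin per the study's methods, that all received the carcinogen DMBA (7,12-dimethylbenz[a]anthracene) by gavage at 65 mg per kg and a pellet with 50 mg of medroxyprogesterone acetate (MPA), a progestin, released over 90 days. The older rats were 21 to 23 months of age and the younger rats 4 months when treated. There were 3 tumors of older rats (tumors 102, 107 and 116) and 3 of younger rats (tumors 157, 158 and 167), each a single library of frozen tumor tissue, with no untreated tissue measured alongside. Per the study's methods, the younger tumors were all the carcinomas that formed in that group, whereas the older ones were those with enough tissue left. Each tumor was taken as 1 replicate, and p-values measure the spread between tumors.

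Complement is a cascade of plasma and tissue proteins that marks cells and debris for removal. In the classical pathway C1q, built of A, B and C chains, binds its target and activates the proteases C1r and C1s, which cleave C4 and C2 to form an enzyme that cleaves C3; Serping1, the C1 inhibitor, blocks C1r and C1s. In the alternative pathway factor B (Cfb), cut by factor D (Cfd, also called adipsin), forms a further enzyme that cleaves C3. The liver makes most of the complement in plasma, but tissue macrophages are a main source of C1q, adipocytes of Cfd, and fibroblasts and epithelial cells make C1s, Serping1, C3 and Cfb locally.

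Promoter sequences are shown for C1qa, C1qb, C3 and Cfd, the 4 members with a promoter in the reference used. They come from RefSeq (assembly GRCr8) and hold the 250 bases before the annotated start, 5′ to 3′ on the strand of the gene. The windows are chr5:154419934-154420183, chr5:154407828-154408077, chr9:2201340-2201589 and chr7:10465497-10465746, all on the minus strand. Capitals mark matches to the motifs searched.
C1qa: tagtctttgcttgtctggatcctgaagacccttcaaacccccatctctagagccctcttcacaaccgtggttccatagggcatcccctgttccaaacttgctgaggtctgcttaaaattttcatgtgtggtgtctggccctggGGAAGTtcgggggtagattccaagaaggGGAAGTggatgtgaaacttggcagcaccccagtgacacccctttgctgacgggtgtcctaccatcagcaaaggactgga
C1qb: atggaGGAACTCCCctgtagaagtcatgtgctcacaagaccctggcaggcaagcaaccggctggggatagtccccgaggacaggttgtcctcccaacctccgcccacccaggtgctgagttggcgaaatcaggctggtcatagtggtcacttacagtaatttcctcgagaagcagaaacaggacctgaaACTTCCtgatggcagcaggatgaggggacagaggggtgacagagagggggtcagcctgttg
C3: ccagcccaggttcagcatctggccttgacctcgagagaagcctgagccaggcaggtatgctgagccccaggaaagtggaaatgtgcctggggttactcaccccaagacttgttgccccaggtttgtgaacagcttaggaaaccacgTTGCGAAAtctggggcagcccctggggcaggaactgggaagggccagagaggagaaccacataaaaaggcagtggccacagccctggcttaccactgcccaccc
Cfd: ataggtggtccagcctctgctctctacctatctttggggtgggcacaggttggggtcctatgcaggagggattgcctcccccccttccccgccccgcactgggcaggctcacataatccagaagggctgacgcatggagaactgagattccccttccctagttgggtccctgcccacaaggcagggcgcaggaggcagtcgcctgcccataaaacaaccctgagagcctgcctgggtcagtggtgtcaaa
The motifs were chosen after the sequences had been seen and were searched on both strands: the ETS core GGAAGT, a C/EBP motif TTGCNNAA, a shortened interferon response element GAAANNGAA, a shortened NF-kB motif GGGNNTTCC and the TATA box TATAAA. The C1qa promoter held 2 ETS cores, from 107 to 102 and from 79 to 74 bases before the start, and C1qb held 1 on the opposite strand, from 61 to 56 bases before it. An ETS core occurred in 19.2% of the 33469 rat promoter windows of the same length. C1qb also held 1 shortened NF-kB motif, 245 to 237 bases before the start, a motif found in 5.09% of windows. C3 held 1 C/EBP motif from 104 to 97 bases before its start, against 9.22% of windows. Neither the interferon motif (8.12% of windows) nor the TATA box (12.9%) was found in any of the 4 promoters, and the Cfd window held none of these motifs. These matches are descriptions of letters and were not tested for binding.

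Libraries held 3508571 to 6525830 counts, of which 2.17% to 3.64% fell on rows without a gene name and were left out. Values are given in CPM, counts scaled to a common library size by edgeR's TMM factors (0.859 to 1.13 over the libraries), which adjust for differences in composition. A count of 3, taken as the floor, corresponded to 0.528 to 1.03 CPM and covers counting error only. Milk casein genes took from 0.617% of all counts (tumor 167) to 14.7% (tumor 158), and no library stood out as a copy of another. Hepatocyte genes were at or near 0, with Alb and Ttr listed at 0 in every tumor and a summed level of at most 1.37 CPM over 5 genes, whereas the epithelial genes Epcam, Krt8 and Krt18 were detected in every tumor.

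The first question was whether complement transcripts differed between tumors of older and younger rats. C3, the protein on which all complement pathways converge, had the largest mean difference and was 6.32-fold higher in older tumors (log2 fold change 2.66, SE 0.99, n = 3 per group). Cfd was 4.53-fold higher in the mean (2.18, SE 0.89), and the 3 C1q chains and C1s were 1.81- to 2.01-fold higher in the mean, from 0.86 to 1.01 on the log2 scale. Serping1 differed by 0.80 and Cfb by -0.03. No member passed edgeR's quasi-likelihood test after Benjamini-Hochberg adjustment over all 13139 genes tested, nor did any other gene (0 of 8 members, 0% of all genes, smallest adjusted p = 0.176). DESeq2's Wald test called 0 of the 8 members as well, where it called 343 of 15016 genes (2.28%), and limma-voom called 0. Without adjustment, 2 of the 8 members, C3 and Cfd, had a p under 0.05 in edgeR, against 1129 of all genes (8.59%). Both were higher in older tumors, as were 5.3% of all genes, and 0 members were lower, against 3.29%. The age groups did not overlap for 1 member, C3, against 12.1% of all genes (6.51% with the older tumors above and 5.58% below). Of the 8 members, 7 had a higher mean in older tumors, with a median log2 fold change of 0.99, where the median over all genes tested was -0.00 and 49.6% were higher. The smallest two-sided p that an exact permutation test could reach with these group sizes is 0.1.

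**Figure D1:**
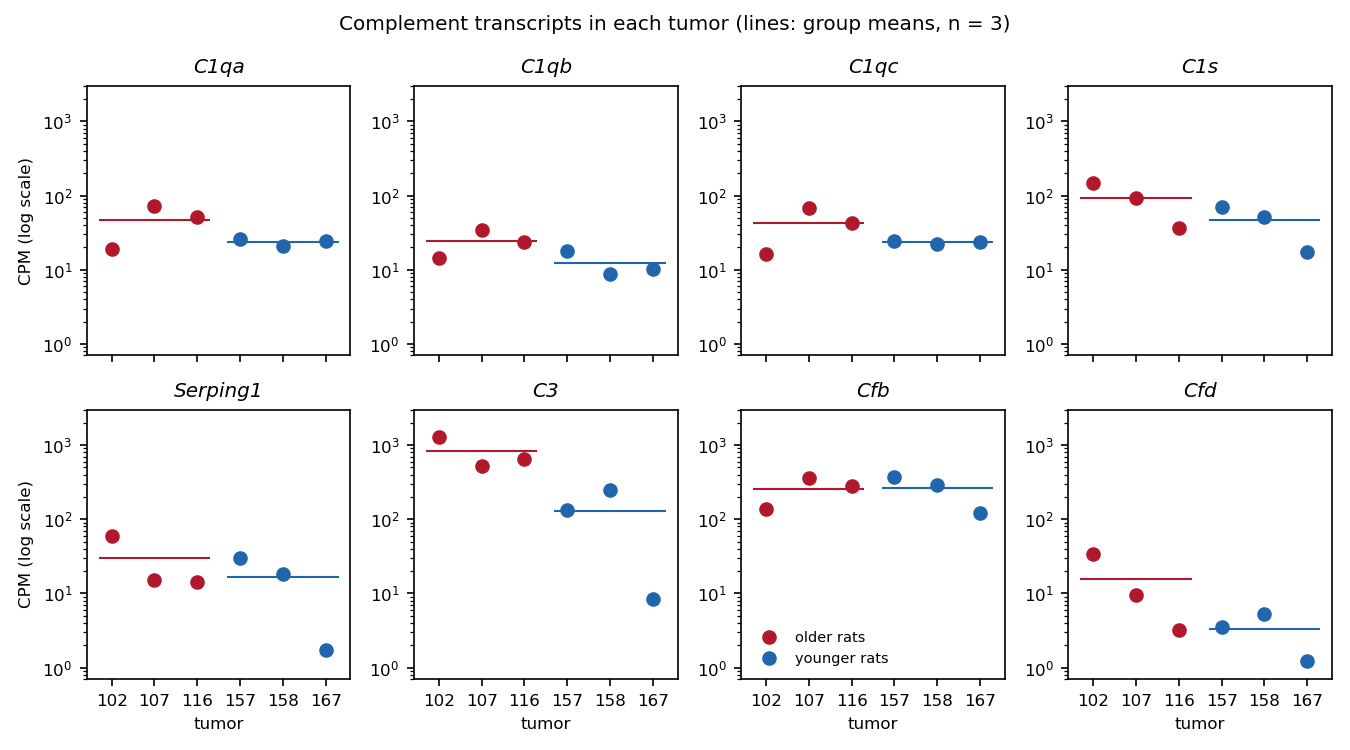
CPM of the 8 complement genes (vertical axis, log scale) in each of the 6 tumors (horizontal axis); points are tumors, red for older and blue for younger rats, and lines are group means (n = 3). The older points lie above all younger points for C3 alone, and tumor 167 is the lowest point for C1s, Serping1, C3, Cfb and Cfd.

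Of the C1q chains, the recognition part of the classical pathway, C1qa and C1qc had nearly the same pattern over the tumors, and C1qb a partly different one. C1qa was measured at 19.2 CPM in tumor 102, 72.4 in tumor 107 and 50.6 in tumor 116, against 25.9, 21.1 and 24.1 CPM in tumors 157, 158 and 167. Tumors 107 and 116 were above every younger tumor, but tumor 102 was below all of them, so the age groups overlapped. The means were 47.4 ± 26.8 CPM in older and 23.7 ± 2.43 CPM in younger tumors (SD, n = 3 each), a log2 fold change of 1.01 (SE 0.45, edgeR adjusted p = 0.607). C1qc had 16.5, 69.0 and 42.1 CPM in older and 24.6, 22.5 and 23.3 CPM in younger tumors, with means of 42.5 ± 26.3 and 23.5 ± 1.07 CPM (SD, n = 3 each; log2 fold change 0.86, SE 0.47, edgeR adjusted p = 0.716). The younger tumors thus lay within a narrow range, and the spread was among the older tumors. C1qb had 14.4, 34.4 and 23.5 CPM in older tumors and 18.0, 8.65 and 10.1 CPM in younger tumors (log2 fold change 0.98, SE 0.44, edgeR adjusted p = 0.604), with tumor 102 below tumor 157 but above tumors 158 and 167. Raw counts of the chains ran from 41 to 320, so single values carry visible counting error. In bulk tissue, fewer cells of a type and less RNA per cell cannot be told apart.

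C1qa and C1qc kept close to a fixed proportion, with an SD of 0.13 of their log2 ratio over the 6 tumors, but C1qb did not. The log2 ratio of C1qb to C1qc had an SD of 0.44, close to the median SD of the level of all genes tested (0.45). C1qb made up 28.8% of the summed C1q counts in tumor 102 (Wilson 95% interval 22.0% to 36.6%) and 26.2% in tumor 157 (22.1% to 30.8%), but 16.6% in tumor 158 (12.7% to 21.3%) and 19.6% in tumor 107 (16.9% to 22.5%). The 2 tumors with the larger C1qb share were thus 1 older and 1 younger, and these intervals cover counting error only. In the RefSeq gene order C1qb, C1qc and C1qa are direct neighbours.

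Macrophage markers had higher means in older tumors along with C1q. The summed level of 10 macrophage markers was 567 to 1436 CPM in older and 171 to 321 CPM in younger tumors, without overlap. All 10 had a higher mean in older tumors. Of these, 8 had an unadjusted p under 0.05 in edgeR, against 5.3% of all genes, and 0 passed after adjustment. For 6 the older tumors were all above the younger ones, against 6.51% of all genes. None was listed at 0 in all tumors. Relative to the mean of these markers, the mean C1q level stood at -1.61, -0.13 and 0.40 (log2 ratio) in tumors 102, 107 and 116, and at 0.13, -0.04 and 0.51 in tumors 157, 158 and 167. The group means of the ratio were -0.45 ± 1.04 and 0.20 ± 0.28 (SD, n = 3 each), and the groups overlapped. The lower mean in older tumors came with the low value of tumor 102, the other older tumors lying within or close to the younger range. Tumor 102 had macrophage markers at 1006 CPM in sum but the lowest C1qa and C1qc of all tumors. Cd163, a scavenger receptor of tissue macrophages, reached 59.3 CPM there and was at most 4.75 CPM in the other older tumors. The log2 ratio of C1q to Cd163 was -1.81 in tumor 102 and 2.24 to 3.53 in the other 5 tumors, and that of C1q to the mannose receptor Mrc1 was -2.19 against -0.04 to 1.54. Relative to Csf1r, the receptor for the macrophage growth factor CSF1, C1q varied less, from -1.52 in tumor 102 to -0.22 in tumor 167. Tumor 102 was not apart for every marker: the log2 ratio of C1q to Tyrobp, a signalling adaptor of myeloid cells, was -0.52 there and -0.64 in tumor 107, and that to Adgre1, a macrophage surface receptor, was 0.04 against 0.21 in tumor 158. The part of macrophage content in the C1q values was not tested.

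**Figure D2:**
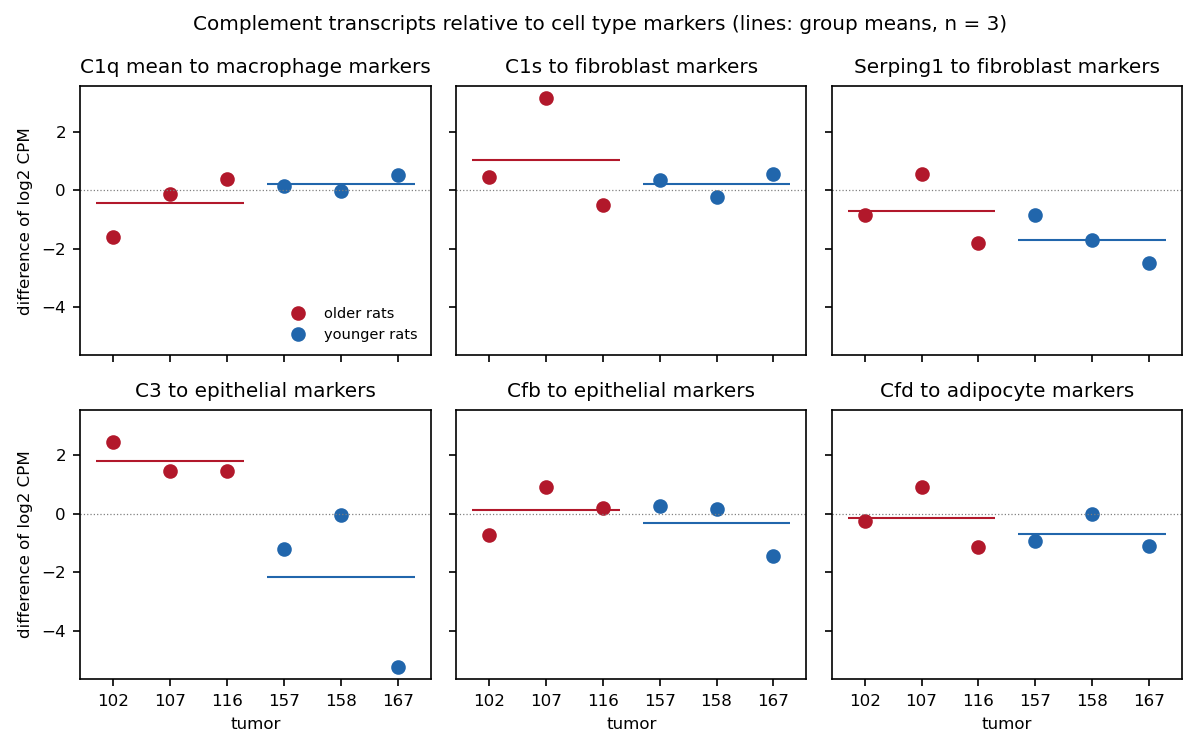
Log2 ratio of complement genes to the mean of cell type markers (vertical axis, difference of log2 CPM) in each tumor (horizontal axis); points are tumors, red for older and blue for younger rats, lines are group means (n = 3) and the dotted line is an equal level. Tumor 102 is low for C1q, tumor 107 is high for C1s at 3.15, and the groups are separate for C3 alone, with tumor 167 at -5.23. Some fibroblast markers in tumor 107 were near the floor.

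C1s, the protease that cleaves C4 and C2, was measured at 148.8, 94.1 and 36.3 CPM in older tumors 102, 107 and 116 and at 70.6, 50.6 and 17.4 CPM in younger tumors 157, 158 and 167. The older tumors held both the highest value and, in tumor 116, a value below 2 of the younger ones. Means were 93.1 ± 56.2 and 46.2 ± 26.8 CPM (SD, n = 3 each; log2 fold change 1.003, SE 0.61, edgeR adjusted p = 0.766). Its partner protease C1r, a direct neighbour of C1s in the RefSeq gene order, had 87.4, 61.3 and 43.5 CPM in older and 75.9, 44.9 and 25.3 CPM in younger tumors (log2 fold change 0.39, SE 0.44). The log2 ratio of C1s to C1r was 0.76, 0.61 and -0.26 in older and -0.10, 0.17 and -0.53 in younger tumors, so the ranges overlapped.

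Serping1, which inactivates C1r and C1s, varied 34.3-fold over the tumors, a wider range than that of C1s (8.53-fold). It had 59.0, 15.4 and 14.4 CPM in older tumors and 30.5, 18.0 and 1.72 CPM in younger tumors. The highest value was in an older and the lowest in a younger tumor, but tumors 107 and 116 were below tumors 157 and 158. Means were 29.6 ± 25.5 and 16.7 ± 14.4 CPM (SD, n = 3 each; log2 fold change 0.80, SE 0.91, edgeR adjusted p = 0.903). The direction rested on tumor 102, since the log2 fold change was -0.18 without it. The low value in tumor 167 came from 7 counts (exact Poisson 95% interval 2.81 to 14.4 counts). The log2 ratio of Serping1 to C1s was -1.33, -2.58 and -1.31 in older and -1.20, -1.47 and -3.05 in younger tumors, so the inhibitor was lowest against its target in tumors 107 and 167.

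Fibroblast markers were set beside both genes. The summed level of 8 fibroblast markers, collagen genes among them, was 1447, 189 and 649 CPM in older and 1119, 1078 and 164 CPM in younger tumors, with 4 of the 8 higher and 4 lower in the mean of older tumors; none was listed at 0 in all tumors. Tumors 107 and 167 were therefore both low in this sum. Thy1 and Pdgfrb went another way: Thy1 was highest in tumor 107, at 27.4 CPM, and Pdgfrb was lowest in tumor 116, at 20.5 CPM. The other markers all had their lowest values in tumors 107 and 167. Relative to the marker mean, C1s stood at 0.47, 3.15 and -0.51 (log2 ratio) in older and 0.34, -0.23 and 0.55 in younger tumors. The C1s ratio was thus highest in tumor 107, while the other 5 tumors lay between -0.51 and 0.55. In tumor 107 Lum, Pdgfra and Dcn had 2, 4 and 10 counts, so the marker mean there rests partly on genes near the floor. Serping1 relative to the same markers was -0.86, 0.57 and -1.82 in older and -0.86, -1.70 and -2.50 in younger tumors. Its value in tumor 107 has the same limit. Endothelial markers in sum were at 304, 227 and 68.4 CPM in older and 135, 208 and 55.3 CPM in younger tumors, also lowest in tumors 116 and 167, where C1s was lowest. The part of stromal content in these values was not tested.

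C3 was the member with the widest spread and the only one whose age groups were separate. It was measured at 1286 CPM in tumor 102, 522 in tumor 107 and 659 in tumor 116, and at 135, 247 and 8.36 CPM in tumors 157, 158 and 167. The lowest older tumor was well above the highest younger tumor, and the extremes lay 154-fold apart. Means were 823 ± 408 and 130 ± 119 CPM (SD, n = 3 each), and the difference had an unadjusted p of 0.029 and an adjusted p of 0.496 in edgeR. With DESeq2 the adjusted p was 0.065, and over all alternatives it ranged from 0.065 to 0.919. The SD of C3 over the 6 tumors, on the log2 scale, was larger than that of 99.7% of genes tested. Within the younger group alone, tumors 158 and 167 differed more than the group means did. Without tumor 167, whose value rested on 34 counts, the log2 fold change was 2.10, and without tumor 158 it was 3.53.

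Epithelial markers were not higher along with C3. Their sum over 5 genes was 1273 to 1336 CPM in older and 1620 to 1880 CPM in younger tumors. All 5 had a lower mean in older tumors and none was listed at 0 in all tumors. For 3 of the 5 the older tumors were all below the younger ones, against 5.58% of all genes. Relative to the marker mean, C3 was at 2.48, 1.45 and 1.46 (log2 ratio) in older and -1.21, -0.05 and -5.23 in younger tumors. The difference between the means was 3.96. The marker mean itself was 7.58 to 7.90 (log2 CPM) in older and 8.00 to 8.37 in younger tumors. With C3 separate in the opposite direction, the groups could not overlap in this ratio, so it is not a second observation. C3 also differed from Cfb, the other protein of its alternative pathway enzyme. The log2 ratio of C3 to Cfb was 3.20, 0.55 and 1.25 in older and -1.48, -0.23 and -3.81 in younger tumors, a difference of 3.50 without overlap. Cfb itself differed by -0.03, so this ratio largely restates C3 and is not a second observation either. The ratios of C3 to macrophage markers and to the C1q mean overlapped between the groups. A set of acute phase genes, which inflammation induces in liver and in epithelia, had a summed level of 839, 714 and 1203 CPM in older tumors. In younger tumors it was 981, 2309 and 394 CPM, and the sum did not separate the groups. Of the 5 genes tested, 4 had a lower mean in older tumors and 1 a higher one. With an unadjusted p under 0.05 in edgeR, 1 was lower (Ptx3), against 3.29% of all genes. For 0 of the 5 were the groups separate. Casein genes, which mark secretory epithelium, took 13.4%, 11.3% and 4.36% of counts in older and 2.88%, 14.7% and 0.617% in younger tumors. The tumor lowest in C3 was also lowest in casein. Tumor 158, highest in this casein share, had less C3 than every older tumor. For the beta-casein gene Csn2 alone it was not highest, with 34352 CPM against 110874 in tumor 102 and 76231 in tumor 107. The part of secretory differentiation in the C3 values was not tested.

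Cfb, the protease precursor of the alternative pathway, was measured at 139.5, 357.6 and 276.9 CPM in older and at 376.3, 289.8 and 122.6 CPM in younger tumors. Each group held 1 low and 2 higher tumors. The means, 258 ± 110 and 263 ± 129 CPM (SD, n = 3 each), differed by less than the spread between tumors (log2 fold change -0.03, SE 0.49, edgeR adjusted p = 0.994). Cfb was well sampled, with 407 to 2138 counts. Relative to epithelial markers it ran from -1.42 in tumor 167 to 0.91 in tumor 107 (log2 ratio). Interferon is a known stimulus of Cfb. A set of 9 interferon-response genes had a summed level of 103, 420 and 312 CPM in older tumors. In younger tumors it was 406, 298 and 320 CPM. The mean was lower in older tumors for 6 of the 9 and higher for 3. For 3 the older tumors were all below the younger ones, against 5.58% of all genes. With an unadjusted p under 0.05 in edgeR, 1 was lower (Rsad2), against 3.29% of all genes, and 0 passed after adjustment. Tumor 102 was lowest in that set and second lowest in Cfb, while tumor 167, lowest in Cfb, was not low in that set.

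Cfd, the protease that cuts factor B and a product of fat cells, was measured at 33.9, 9.50 and 3.19 CPM in older and at 3.52, 5.22 and 1.23 CPM in younger tumors. Tumors 102 and 107 were above all younger tumors, and tumor 116 was below tumors 157 and 158. Means were 15.5 ± 16.2 and 3.32 ± 2.00 CPM (SD, n = 3 each), with an unadjusted p of 0.042 and an adjusted p of 0.557 in edgeR. The counts were low, from 5 in tumor 167 (exact Poisson 95% interval 1.62 to 11.7) to 99 in tumor 102. Without tumor 102 the log2 fold change went from 2.18 to 0.89. In sum, adipocyte markers were also highest in that tumor, at 289 CPM over 6 genes against 28.8 to 59.5 CPM in the other 5 tumors. Fabp4, a fatty acid carrier of fat cells, reached 134 CPM there. Lep went the other way, with 24.9 CPM in tumor 107 against 4.11 CPM in tumor 102. Of the 6 adipocyte markers, 4 could be tested, all with a higher mean in older tumors and 0 called by edgeR, with 0 at an unadjusted p under 0.05. Adipoq and Lep had enough counts in too few tumors to be tested, and Lep was listed at 0 in tumors 116 and 157. Relative to the adipocyte marker mean, Cfd was at -0.23, 0.92 and -1.13 (log2 ratio) in older and -0.92, -0.01 and -1.11 in younger tumors, with a difference of 0.54 between the means and overlapping ranges. The part of residual fat in the Cfd values was not tested.

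The members differed in which tumor was extreme. Tumor 167 was lowest for 5 of the 8 members (C1s, Serping1, C3, Cfb and Cfd) but not for the C1q chains, where tumor 102 was lowest for 2 and tumor 158 for 1. Tumor 102 was highest for 4 (C1s, Serping1, C3 and Cfd), tumor 107 for the 3 C1q chains and tumor 157 for Cfb. Tumor 102 was thus at an end of the range for 6 of the 8, high for 4 and low for C1qa and C1qc, and it was second lowest for Cfb. In spread over the 6 tumors on the log2 scale, Serping1 was above 97.4% and Cfd above 96.4% of the genes tested, C1s above 89.3%, and the C1q chains and Cfb above 72.9% to 76.9%.

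**Figure D3:**
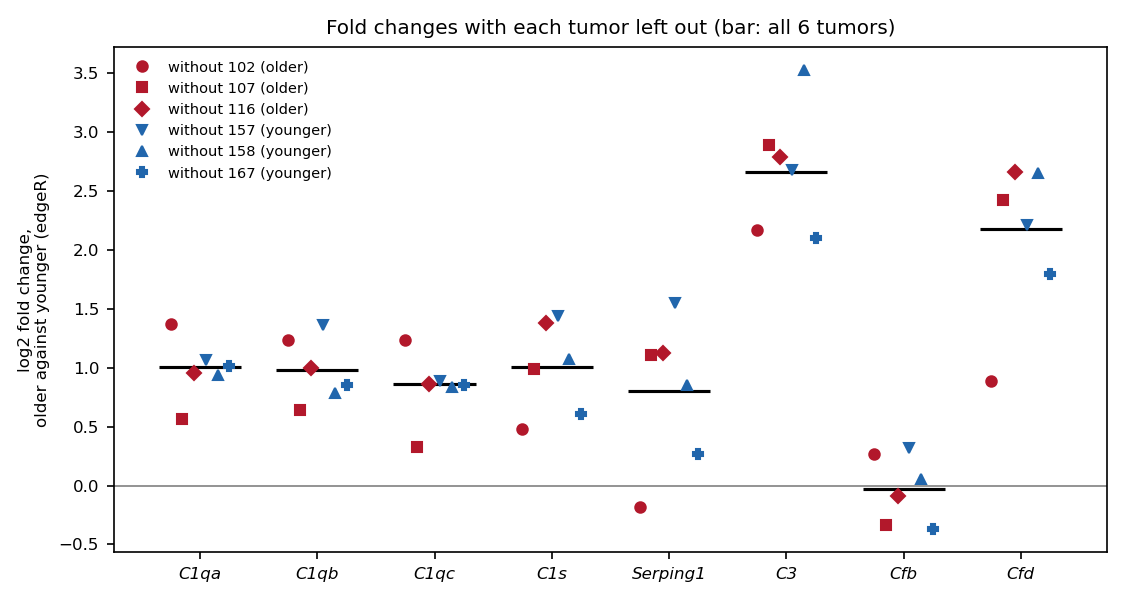
Log2 fold change of each member between older and younger tumors (vertical axis, edgeR) with each tumor left out in turn; bars show the value from all 6 tumors, symbols mark the tumor left out, red for older and blue for younger. C3 stays between 2.10 and 3.53, Cfd drops to 0.89 and Serping1 to -0.18 without tumor 102, and Cfb lies on both sides of 0.

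Single tumors moved the fold changes by different amounts. The C1q fold changes were smallest without tumor 107 (0.57, 0.64 and 0.32 on the log2 scale for C1qa, C1qb and C1qc). They were largest without tumor 102 for C1qa (1.37) and C1qc (1.23), and without tumor 157 for C1qb (1.36). Without tumor 102 the age groups no longer overlapped for all 3 C1q chains and C3, where 18.7% of all genes did not overlap. C1s differed by 0.48 without tumor 102 and by 1.44 without tumor 157. C3, separate with all 6 tumors, stayed so in each of these fits. Beyond shifts in scaling, leaving out a tumor cannot make separate groups overlap, so this adds no evidence. No member passed the adjusted threshold in any of these fits.

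To place the members in the wider pathway, 41 other complement components, regulators and receptors were read from the same fit. Of these, 37 had a row under their symbol and 25 could be tested; Mbl2, Colec11, Cr1l and C5ar1 were not analysed here. After adjustment edgeR called 0 of the 25 and limma-voom 0, while DESeq2 called 4 (Itgb2, Itgam, Itgax and C6). DESeq2 called 2.28% of the 15016 genes to which it gave an adjusted p. Of the 37, Mbl1, Colec10, C7, C8b, C9, Cr2 and Vsig4 had none. Without adjustment, 3 of the 25 had a p under 0.05 in edgeR and a higher mean in older tumors (Itgam, Itgax and Itgb2). With such a p, 1 had a lower mean (Cfi). The shares of all genes were 5.3% and 3.29%. For 5 the older tumors were all above the younger ones (Cfp, C3ar1, Itgam, Itgax and Itgb2), and for 0 below, against 6.51% and 5.58% of all genes. The mean was higher in older tumors for 17 and lower for 8, with a median log2 fold change of 0.36.

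**Figure D4:**
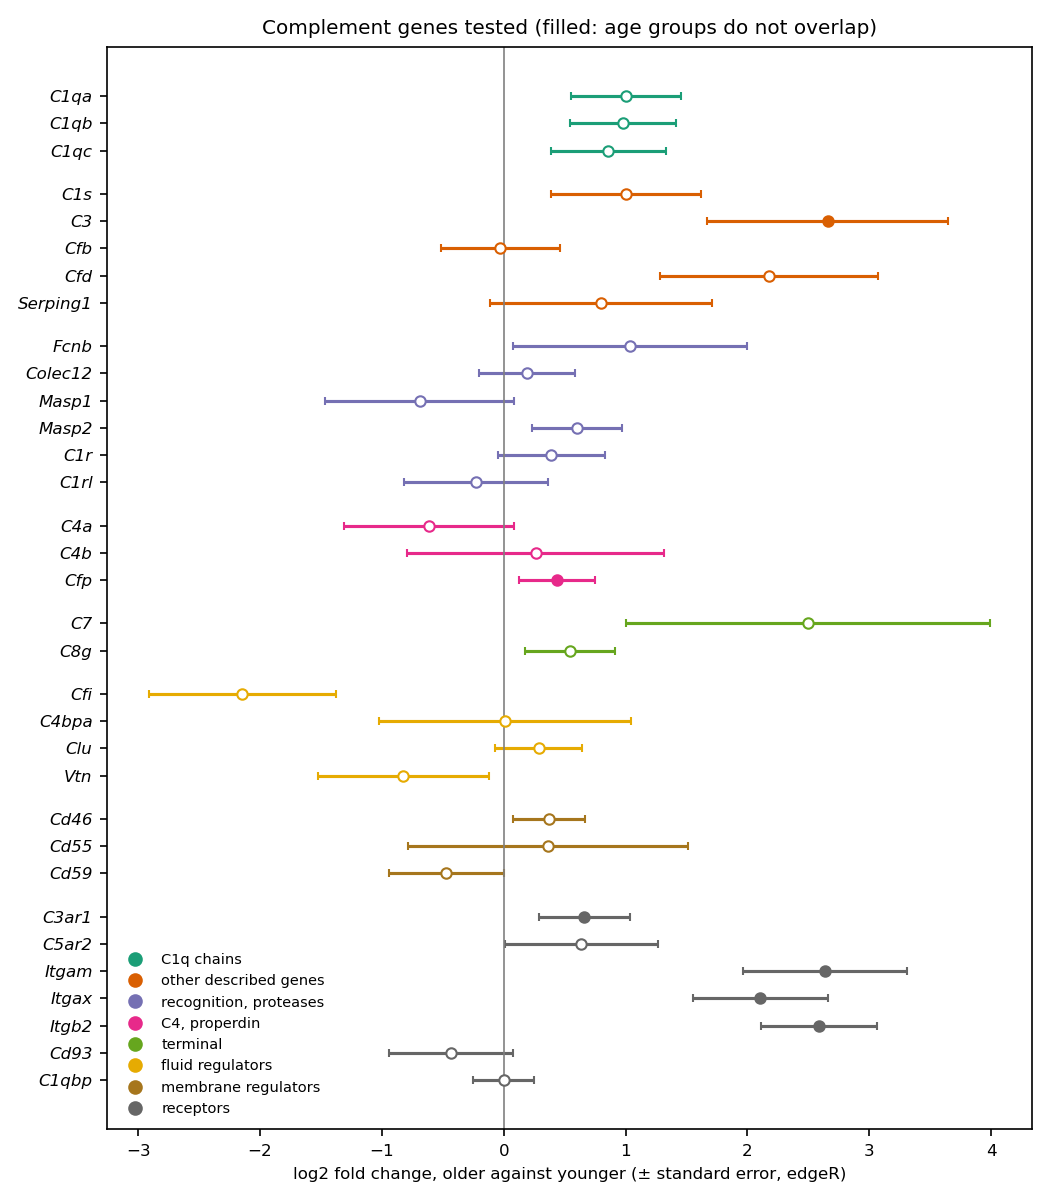
Log2 fold change between older and younger tumors (horizontal axis, edgeR, bars ± standard error) of the 8 members and the 25 other complement genes tested, colored by role; filled points have age groups that do not overlap. C3, Itgam, Itgb2 and C7 lie furthest to the right at 2.50 to 2.66, and Cfi furthest to the left at -2.14.

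Soluble regulators that act on C3 and its enzymes were read next. Factor I (Cfi), the protease that degrades active C3 and C4 fragments, had 26.1, 7.47 and 23.3 CPM in older and 91.2, 142 and 17.0 CPM in younger tumors (log2 fold change -2.14, SE 0.76, edgeR adjusted p = 0.471). Tumor 167 was below 2 of the older tumors, so the ranges overlapped. Properdin (Cfp), which stabilizes the C3-cleaving enzyme of the alternative pathway, had 14.0 to 16.8 CPM in older and 9.55 to 13.7 CPM in younger tumors (log2 fold change 0.44, SE 0.31).

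Among the receptors, the subunits of the integrins that bind cleaved C3 had the largest differences. Itgb2, the shared beta subunit, had 68.9, 76.3 and 23.3 CPM in older and 11.6, 8.65 and 7.62 CPM in younger tumors (log2 fold change 2.59, SE 0.48, adjusted p = 0.235 in edgeR and 0.000195 in DESeq2). Itgam, the alpha subunit of complement receptor 3, had 66.2, 55.2 and 12.6 CPM against 11.3, 6.30 and 3.69 CPM (2.63, SE 0.67, adjusted p = 0.325 in edgeR and 0.00795 in DESeq2). Itgax, the alpha subunit of complement receptor 4, had 50.7, 114 and 24.1 CPM against 17.8, 15.1 and 10.8 CPM (2.10, SE 0.55, adjusted p = 0.334 in edgeR and 0.0198 in DESeq2). In each case all older tumors were above all younger ones. These integrins are made by myeloid cells in general, and the macrophage markers given above were higher in the mean of older tumors too. The part of myeloid cell content in the integrin values was not tested. C3ar1, the receptor for the C3a fragment, had 10.2 to 14.7 CPM in older and 6.12 to 9.68 CPM in younger tumors (log2 fold change 0.66, SE 0.37, edgeR adjusted p = 0.732). Membrane regulators that protect host cells differed little against their errors, with log2 fold changes of 0.37 (SE 0.30) for Cd46, 0.36 (SE 1.15) for Cd55 and -0.47 (SE 0.47) for Cd59.

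C4, the substrate of C1s, is listed as C4a and C4b, near-identical copies between which reads may be divided, so both values are uncertain. C4a had 646, 401 and 373 CPM in older and 702, 1328 and 138 CPM in younger tumors (log2 fold change -0.61, SE 0.70), and C4b 1166, 264 and 136 against 373, 885 and 46.0 CPM (0.26, SE 1.06). As for C3 and Serping1, tumor 167 was lowest for both copies. Terminal components, which form the membrane pore, were mostly at low counts. C7 had 107 CPM in tumor 102 and at most 9.68 CPM elsewhere (log2 fold change 2.50, SE 1.49, edgeR adjusted p = 0.758). C6, which edgeR's filter removed, had 53 counts in tumor 102 and at most 4 in any other tumor (DESeq2 adjusted p = 0.0465), and C8a had 51 counts in tumor 107 and 2 in tumor 116 with 0 elsewhere. Mbl1, Colec10 and C9 were listed at 0 in every tumor. Fcna, C5, C8b, C4bpb, Csmd1, Cr2 and Vsig4, a complement receptor of resident macrophages, had too few counts to be tested, at most 9 in any tumor.

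For each pattern, the genes most like it were found by the SD over the 6 tumors of the log2 ratio of gene to member, among 10220 other named genes with a mean of at least 10 CPM. The closest to the mean C1q profile were Hic1 (SD 0.12), Cyth4 (0.14) and Fcrl2 (0.20), where the median over candidates was 0.83. Cyth4, expressed in blood cells, had 9.94, 34.9 and 18.9 CPM in older and 11.4, 7.93 and 10.3 CPM in younger tumors, also low in tumor 102. The closest to C1s were Adcy4 (0.16), She (0.30) and Ptprb (0.35), of which Ptprb is an endothelial phosphatase (median over candidates 1.15). The closest to Cfd were Slc28a2 (0.23), Adgrl4 (0.24) and Klf2 (0.30) (median 1.54). Serping1 was followed by Sema6b (0.47) and the matrix genes Mmp2 (0.47) and Fn1 (0.59; median 1.66).

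The genes closest to C3 were the beta-casein gene Csn2 (SD 0.85), Mroh3 (0.88) and Pigr (0.93), the receptor that carries antibodies into milk, where the median over candidates was 2.59. Csn2 had 110874, 76231 and 20228 CPM in older and 7557, 34352 and 593 CPM in younger tumors, so that tumor 167 was lowest and tumor 102 highest, as for C3, but tumor 158 exceeded tumor 116. Pigr had 160, 363 and 80.5 CPM in older and 20.9, 47.2 and 1.72 CPM in younger tumors, without overlap. It was picked for its likeness to C3, whose groups are separate, so this is not a further observation. The likeness was looser than for the other profiles, and these are descriptions over 6 points that share the library scaling.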

How the data were processed

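Per the study's methods and labels, the authors aligned reads with STAR, counted reads per gene with HTSeq 0.13.5 on genome build mRatBN7.2 and deposited the raw count of each gene in 6 tumors, without normalization. The labels describe polyA RNA, whereas the methods describe removal of ribosomal RNA, and whether counting used strand is not given in the sources used here. All 6 columns were used.

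Of 30562 rows, 4367 without a gene name were left out. The main test was that of edgeR 4.0.16 under R 4.3.3 (filterByExpr, TMM, quasi-likelihood test with age group only, Benjamini-Hochberg adjustment, threshold 0.05), and 13139 genes were tested. Standard errors were taken from the fold change and the F statistic. Log2 CPM and ratios used a prior count of 2. DESeq2 1.42.0 and limma-voom (limma 3.58.1) were alternatives, beside other scalings, other filters, leaving out the 10 most abundant genes and each tumor, and a prior count of 0.5. Scripts were tested on simulated data. The members, gene lists and tests were chosen with earlier results of these data known. Every member was named; of other complement genes, those with an unadjusted p under 0.05, with separate age groups or not testable were named, with up to 3 examples per role; C7, C4a, C4b and C1r are named as such examples. Profiles were matched to the 3 nearest genes. All 9 symbols matched RefSeq (GRCr8), whose coordinates serve only the 4 promoters found. Intervals are at the 95% level. Depth limits Cfd and Serping1 most.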

Additional observations from a re-analysis of the deposited data

How the results depend on the processing

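Across the alternatives, 105 recomputed fold changes of members kept their direction and their side of the threshold and 5 turned sign: Cfb to 0.0148 with limma-voom, 0.26 without tumor 102, 0.32 without tumor 157 and 0.06 without tumor 158, and Serping1 to -0.18 without tumor 102. With each tumor left out in turn, Cfb ranged from -0.37 to 0.32 and Serping1 from -0.18 to 1.54. With a prior count of 0.5, 14 log2 ratios were recomputed, those to the C1q mean and to macrophage markers. These 14 and all 16 group means with library totals alone moved by less than the spread between tumors. The other ratios were not recomputed with that prior count. edgeR called 0 genes in every fit (788 to 1591 at an unadjusted p under 0.05) and limma-voom 0, while DESeq2 called 343, among them 4 other complement genes and 0 members; the cause was not tested. The number of members with separate age groups ranged from 1 to 4 when a tumor was left out, with fewer tumors to overlap: 4 without tumor 102, 3 without tumor 116 and 2 without tumor 157, against 18.7%, 27% and 17.8% of all genes. Requiring 10 counts in every tumor removed Cfd and Serping1, so it gave no value for them. Keeping rows without a gene name, an alternative chosen after seeing the data, left 1 member separate (C3). No paired analysis was possible because the tumor numbers are not shared between the age groups. The low counts of Cfd and Serping1 in tumor 167 limit their fold changes.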

Other observations

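Genes named for a C1q-like domain, which are secreted factors and not complement components, were read from the same fit after their values had been seen. Of 13 with a row (C1qtnf and C1ql genes), 4 could be tested, edgeR called 0 after adjustment, and 1 had an unadjusted p under 0.05. That gene, C1qtnf1, had 38.4, 2.26 and 25.1 CPM in older tumors 102, 107 and 116 and 2.11, 1.80 and 3.44 CPM in younger tumors 157, 158 and 167 (log2 fold change 3.16, SE 0.91, edgeR adjusted p = 0.359). It was high in the older tumors 102 and 116 only, and tumor 107 lay within the younger range. Its pattern was unlike that of the C1q chains, which were highest in tumor 107.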
